A study of Mus musculus with 2 samples.

Results

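A small set of barcodes with epithelial transcripts, apart from parathyroid cells, was described in single-cell RNA libraries of mouse vein grafts. A barcode was counted as epithelial when it held at least 2 UMIs (unique molecular identifiers, each standing for 1 captured RNA molecule) of Epcam and at least 2 UMIs of 1 or more of Krt18, Krt8, Krt7, Krt5, Krt14 and Cdh1, with Pth under 2% of its UMIs. Barcodes under 500 genes or 1000 UMIs, or with over 10% of UMIs from mitochondrial genes, were not considered. This gave 73 of 21983 barcodes: 36 of 10458 in the conventional library, a share of 0.344% (exact 95% interval 0.241 to 0.476), and 37 of 11525 in the No-Touch library, a share of 0.321% (0.226 to 0.442). The shares differed by less than their counting error. The values that chose these barcodes (Epcam, the 5 keratins, Cdh1 and Pth) are given below as a description.

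Both libraries were made from vein grafts of C57BL6/J mice aged 10 to 12 weeks, and no allele or drug is named for either group. The labels name the groups conventional and No-Touch vein grafts and say no more of the surgery. As background, the no-touch technique takes a vein together with the tissue around it, whereas conventional harvest strips that tissue. Cells were freed by papain, followed by a mix that also held collagenase and dispase. Those that were alive, nucleated and without CD45, the surface antigen of leukocytes, were sorted for droplet sequencing with a 3' kit whose version the labels leave between v2 and v3. Each group is 1 library, and the sources used here do not give how many animals and grafts it holds. Every difference below therefore compares these libraries and has no replicate check, and intervals cover counting error only. Because cells of 1 library share their source, they are not replicates of a graft type.

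Epithelial cells line surfaces, ducts and glands. They hold together through E-cadherin, claudins and desmosomes, and their keratins form the filaments of the cell body. A vein wall holds endothelium, smooth muscle and fibroblasts but no epithelium of its own, whereas salivary glands, thymus, thyroid, parathyroid and skin appendages hold epithelium. In glands, acinar cells make the secreted proteins, contractile myoepithelial cells surround them, and ducts carry and modify the fluid. Thymic epithelial cells form the scaffold in which T cells mature, and show antigen on MHC class II. The sources used here do not give the site of grafting.

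The genes of the rule had the following levels, which the selection itself set. Epcam, an adhesion molecule of epithelia, had a lowest, median and highest count of 2, 11 and 34 UMIs in the conventional and 2, 12 and 49 UMIs in the No-Touch barcodes. Krt18, a keratin of simple epithelia, had 2, 71 and 375 UMIs and 0, 22 and 231 UMIs. Cdh1, which encodes E-cadherin, had 0, 4.5 and 16 UMIs and 0, 3 and 18 UMIs. At the edge of the rule, 3 barcodes of each library had exactly 2 Epcam UMIs, and a further 6 conventional and 2 No-Touch barcodes met the rest of the rule with 1 Epcam UMI. Another 6 and 13 barcodes had Epcam without any of the other genes at 2 UMIs. On the Pth side, 155 conventional and 6 No-Touch barcodes met the rule but for Pth, with at least 2.88% and 8.48% of their UMIs from this gene. The highest Pth share inside the rule was 0.854% and 0.861%, and the next highest was 0.0528% and 0.0190%.

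Those 2 barcodes under the Pth limit also carried Chga, a gene of both the parathyroid and the thyroid C cell marker lists. The conventional one had 233 Pth and 198 Chga UMIs among 27278, and Chga encodes a protein of hormone granules. The No-Touch one had 76 Pth, 14 Chga, 2 Casr and 1 Gcm2 UMIs among 8826, where Casr is the calcium receptor and Gcm2 a regulator of parathyroid development. In the conventional one Casr had 1 UMI and Gcm2 had 0. Both barcodes stayed among the 73 by the rule.

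Depth and counts of mixed barcodes are given first. Median depth was 18564.5 UMIs (2214 to 49609) in the conventional and 21433 UMIs (3731 to 201049) in the No-Touch epithelial barcodes, against 16778.5 and 28472 UMIs over all kept barcodes. The libraries had 18 barcode sequences in common, of 11899 and 12450. The 6 fibroblast genes Col1a1, Col1a2, Col3a1, Dcn, Lum and Pdgfra made up at least 1% of UMIs in 5 conventional and 9 No-Touch epithelial barcodes. At least 2 UMIs of Pecam1 or Cdh5 (endothelium) were found in 1 and 2, and of Ptprc (which encodes CD45) in 0 and 2. In all, 6 of 36 and 12 of 37 carried 1 or more of these signs. Scrublet, a doublet caller, placed 13 of the 36 conventional barcodes (36.1%) but 0 of the 37 No-Touch ones among the highest scores of their library, 8.37% and 9.22% of barcodes. Its automatic threshold marked 241 conventional barcodes and 0 No-Touch barcodes, so it gave no usable call in the latter. No barcode was removed from the values below, and some are also given without these barcodes.

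UMIs of gland products were also found outside epithelial barcodes. In fibroblast-marker barcodes (Pdgfra at least 2 and Dcn at least 10 UMIs), which should lack them, Bpifa2 had a UMI in 5929 of 8446 No-Touch barcodes, or 70.2% (69.2 to 71.2), and in 0 of 5752 conventional barcodes. Thinned to 3000 UMIs per barcode the No-Touch share was 11.3%. Pip, Smr3a and Dcpp1 were found in 9.37%, 10.6% and 7.22% of the No-Touch and in none of the 5752 conventional barcodes, which allows a share of up to 0.0522%. Amy1 had a UMI in both, in 28.1% of the No-Touch and 11.8% of the conventional barcodes. In the other direction, Bpifa1 was found in 9.25% and Gp2 in 0.817% of conventional and in 0 of 8446 No-Touch fibroblast-marker barcodes, which allows up to 0.0355%. Pth was found in 96.6% and 36.3%. The median depth of these fibroblast-marker barcodes was 21504.5 and 33898.5 UMIs. A barcode is counted below for a gene at 2 UMIs or more. This minimum does not clear the background of every gene, since conventional fibroblast-marker barcodes held a median of 4 Pth UMIs.

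**Figure D1:**
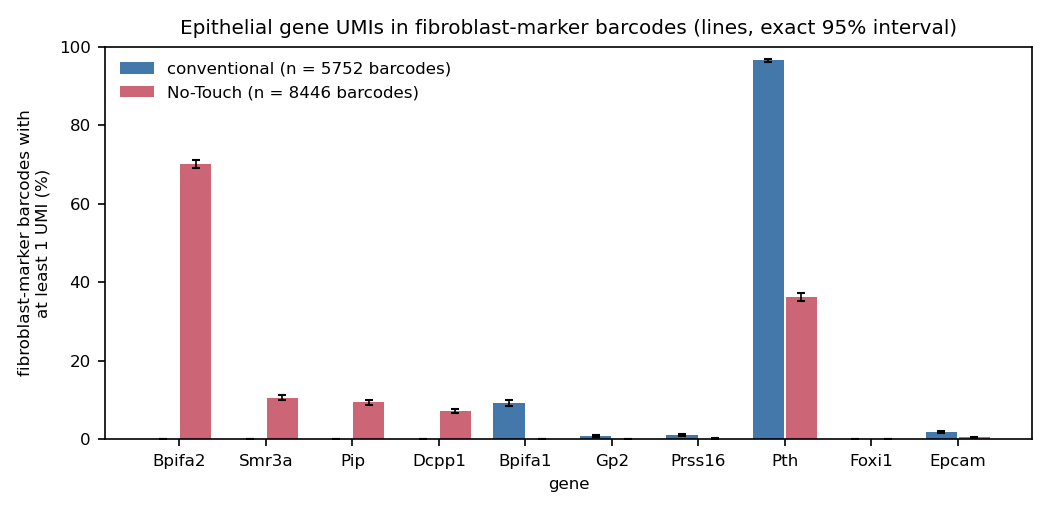
Share of fibroblast-marker barcodes with at least 1 UMI of each gene (vertical axis, percent), by library, for 10 genes of epithelia; bars are shares of 5752 conventional and 8446 No-Touch barcodes, and lines are exact 95% intervals. Bpifa2 stands at 70.2% in the No-Touch library and at 0 in the conventional, and Pth at 96.6% (conventional) and 36.3% (No-Touch).

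The 73 barcodes formed 8 clusters, numbered 0 to 7. The clusters were built from the 1000 most variable genes of these barcodes, and leading genes were taken from the same barcodes, so they describe the clusters and are not tested. Clusters 1 and 5 held conventional barcodes, clusters 6 and 7 held No-Touch barcodes, and clusters 0, 2, 3 and 4 held both. A cluster that comes from 1 library may be that library and not a cell type. At a lower resolution of 0.5 clusters 3 and 4 joined, and the other 6 kept the same barcodes. The grouping moved more when barcodes were left out. Without mixed barcodes the 4 that remained of cluster 6 fell in a cluster of 14 with 10 from other clusters, and the 1 that remained of cluster 2 joined 11 others. Without the highest Scrublet scores 4 of the 8 left of cluster 4 stayed together, cluster 5 was joined by 4 others, and cluster 6 kept 5 of 7 together. Clusters 0 and 7 kept all their remaining barcodes, with no others, in both.

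**Figure D2:**
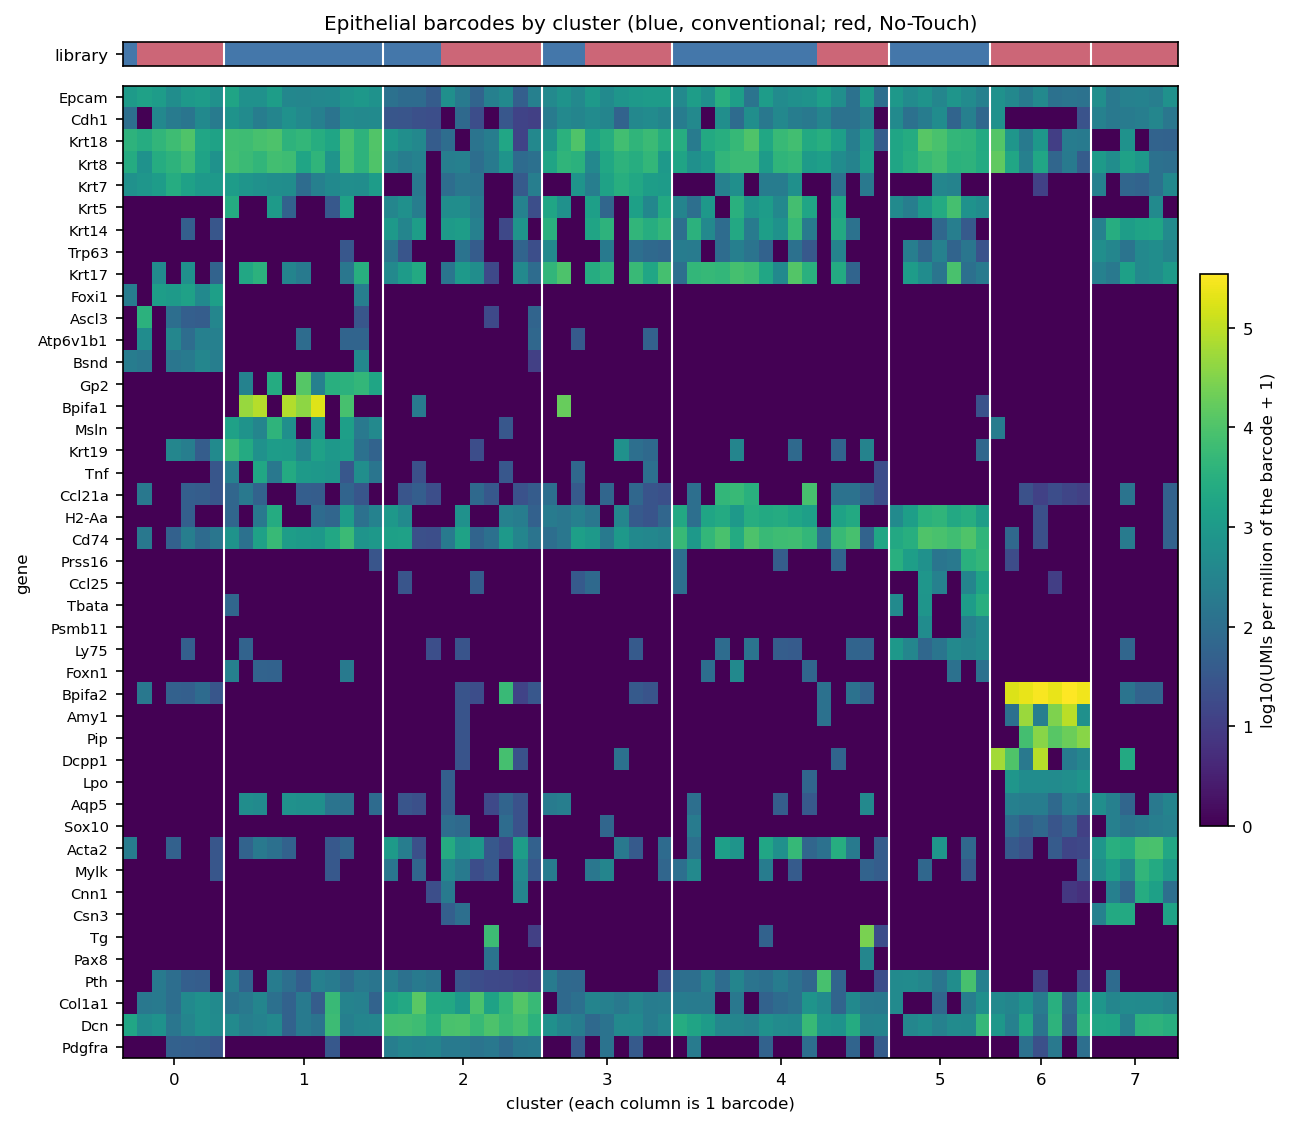
Level of marker genes (rows) in each of the 73 epithelial barcodes (columns, grouped by cluster), as log10 of UMIs, scaled to the same total in every barcode (CPM), plus 1; the strip above marks the library. Bpifa2 is high in 6 of the 7 barcodes of cluster 6, Prss16 marks cluster 5, Foxi1 marks 6 of the 7 barcodes of cluster 0, and Dcn is high across cluster 2.

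Cluster 6 held 7 No-Touch barcodes with secreted proteins of salivary acini, and is called salivary-like. Bpifa2 (also named parotid secretory protein), a bactericidal/permeability-increasing fold protein of saliva, had 0, 9652, 20019, 23570, 29405, 51562 and 52961 UMIs in these barcodes. In 6 of the 7 it was a leading transcript, at 268820 counts per 1000000 UMIs (CPM) over the cluster. Amy1, salivary amylase, had a lowest, median and highest count of 0, 123 and 13502 UMIs. Pip, prolactin-induced protein, had 0, 1350 and 7294 UMIs. Lpo, the peroxidase of saliva, had 0, 46 and 147 UMIs, and Bhlha15, a regulator of secretory cells, had 0, 6 and 17 UMIs. In the No-Touch barcodes the 15 salivary markers together reached up to 46.1% of the UMIs of a barcode, and 2 of them, Smgc and Muc19, were at 0.

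The acinar products were not evenly spread within the cluster. Smr3a, a submaxillary gland protein, had 24516 and 10308 UMIs in 2 barcodes and at most 118 in the other 5. Dcpp1, a demilune cell protein, had 8274 UMIs in 1 barcode and at most 581 in the others. Scgb1b27 and Scgb2b27, which are secretoglobins, came from 1 barcode to 99.5% and 98.0%. The single barcode without Bpifa2 was also the shallowest, with 4756 UMIs, of which 278 were Dcpp1 and 55 Krt18. Amy1, the secretoglobins, Dcpp1 and Mup5 have close copies in the genome, and the sources used here do not give how reads were split between copies. The cluster had a median depth of 94599 UMIs and supplied 44.0% of all UMIs of the No-Touch epithelial barcodes. Fibroblast genes made up at least 1% of UMIs in 2 of the 7.

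A pair of related genes stood on opposite sides. Bpifa2 (chromosome 2, 154008265 to 154016079, plus strand) and Bpifa1 (chromosome 2, 154142880 to 154149219, plus strand; mm10, GENCODE vM21), a secreted defence protein of airway and oral lining, are protein-coding genes of the same family. Bpifa2 had at least 2 UMIs in 0 of 36 conventional and 11 of 37 No-Touch epithelial barcodes. Of these 11, 6 were in cluster 6, 1 in cluster 2 had 381 UMIs, and the other 4 had 2 or 3 UMIs. Bpifa1 had at least 2 UMIs in 8 of 36 and 0 of 37. The pair was chosen after these values were seen. Their promoter windows, 250 bases before to 50 after the gene start, are shown because the 2 genes differ most between the libraries in each direction. They are the windows of RefSeq on GRCm38.p6, at chr2:154142630-154142929 for Bpifa1 and chr2:154008026-154008325 for Bpifa2, both on the plus strand. Capitals mark TATAAA, the letters of a TATA box, searched on both strands.
Bpifa1: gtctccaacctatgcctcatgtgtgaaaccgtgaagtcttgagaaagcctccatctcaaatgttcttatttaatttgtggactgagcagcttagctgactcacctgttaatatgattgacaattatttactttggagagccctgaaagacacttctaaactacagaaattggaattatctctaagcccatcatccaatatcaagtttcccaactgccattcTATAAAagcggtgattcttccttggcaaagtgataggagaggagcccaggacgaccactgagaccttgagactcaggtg
Bpifa2: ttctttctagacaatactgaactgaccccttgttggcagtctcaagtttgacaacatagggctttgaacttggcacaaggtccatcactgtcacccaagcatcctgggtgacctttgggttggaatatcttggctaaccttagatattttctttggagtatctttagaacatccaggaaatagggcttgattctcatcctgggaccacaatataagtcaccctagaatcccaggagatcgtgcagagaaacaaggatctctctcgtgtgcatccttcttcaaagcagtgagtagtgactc
The Bpifa1 window holds TATAAA at position 222 from its 5′ end, and the Bpifa2 window holds these letters on neither strand. Of 32851 promoter windows, 8.32% hold TATAAA in sense and 13.6% on either strand. The match is a description of the letters, and nothing about a factor follows from its presence or absence.

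Cluster 7 held 6 No-Touch barcodes with contractile and basal genes, and is called myoepithelial-like. Acta2, smooth muscle actin, had 3, 36, 38, 39, 151 and 158 UMIs. Mylk, myosin light chain kinase, had 2, 5, 15, 19, 42 and 77 UMIs, and Cnn1, calponin, had 0, 1, 2, 3, 25 and 48 UMIs. Trp63, the p63 regulator of basal epithelium, had 2 to 9 UMIs in every barcode of the cluster. Of the 5 myoepithelial markers Oxtr was at 0, and Krt14 was part of the selection. Csn3, kappa-casein, led the cluster with 27, 31 and 35 UMIs in 3 barcodes and at most 1 in the other 3, and these latter included the 2 with the most Acta2. Cnn1 and Csn3 were the marker of myoepithelium and of mammary gland among its 10 leading genes, so the name rests on an even count. Such a count left cluster 1, below, unnamed. The name here also draws on Acta2 and Mylk of the myoepithelial list, and is tentative. The barcodes with 27, 31 and 35 Csn3 UMIs had 3, 2 and 1 Cnn1 UMIs. Of 6 mural markers (smooth muscle and pericytes), Rgs5, Notch3 and Pdgfrb were at 0, and the summed list ran from 0.0268% to 0.245% of UMIs. Myh11, a smooth muscle myosin on the same list, was found in every barcode of the cluster, with 1, 5, 7, 12, 34 and 42 UMIs.

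Cluster 5 held 7 conventional barcodes with thymic genes, and is called thymic epithelial-like. Prss16, the thymus-specific serine protease of cortical epithelium, had 2, 3, 7, 9, 11, 89 and 196 UMIs. Ly75, also called DEC-205, had at least 2 UMIs in 6 of the 7, and Ccl25, a chemokine of the thymus, in 4. Psmb11, the proteasome subunit of the thymic cortex, had 7, 7 and 19 UMIs in 3 barcodes and 0 in the other 4. Foxn1, the regulator of thymic epithelium, had 2 and 5 UMIs in 2 barcodes, and Aire and Fezf2 of the medulla were at 0. Foxn1 was not limited to this cluster, with 4 and 6 UMIs in 2 barcodes of cluster 1 and 2 and 5 UMIs in 2 conventional barcodes of cluster 4, and it had no UMI in the 37 No-Touch barcodes. Cd74, the invariant chain of MHC class II, had 5, 26, 121, 130, 147, 183 and 283 UMIs. Chga was among the leading genes, but 97.1% of it came from the barcode with 233 Pth UMIs named above, which also held Prss16 and Psmb11. Outside the rule, 2 further conventional barcodes and 1 No-Touch barcode reached 0.05% of UMIs from Prss16, a level that 5 of the 7 did.

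Cluster 0 held 1 conventional and 6 No-Touch barcodes, led by Sult1c1 (a sulfotransferase) and Foxi1. Foxi1, the forkhead regulator of ion-transporting cells, had 2 UMIs in the conventional barcode and 0, 10, 13, 21, 32 and 46 UMIs in the No-Touch barcodes. Other leading genes were Atp6v1c2, a subunit of the proton pump, Foxi2 and Ascl3. Ascl3, a regulator known from salivary ducts, had 22 and 12 UMIs in 2 barcodes and at most 2 in the others. Atp6v1b1, another proton pump subunit, had 0, 2, 3, 6, 7 and 9 UMIs in the No-Touch and 0 in the conventional barcode. Bsnd, which encodes barttin, had 2 UMIs in the conventional barcode and a lowest and highest count of 0 and 8 in the others. Foxi1 made up at least 0.02% of UMIs in 2 conventional and 5 No-Touch barcodes of the whole series, all of them within the epithelial set. Among all other kept barcodes it had a UMI in 1 of 10422 and 5 of 11488. No marker list of ion-transporting cells was set, and the cluster stays unnamed.

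Cluster 1 held 11 conventional barcodes, led by Gp2, Msln and Bpifa1. Gp2, a membrane glycoprotein that binds bacteria, had a lowest, median and highest count of 0, 47 and 270 UMIs and was at 0 in the other 62 epithelial barcodes. Msln, mesothelin, had 0, 12 and 74 UMIs. Bpifa1 had 0, 278 and 4338 UMIs, with 5 of the 11 at 0. Tnf, the cytokine, had 0, 19 and 46 UMIs, and Tnip3, an inhibitor of NF-kappaB signalling, was among the first 4 leading genes. Of 8 mesothelial markers Upk3b, Lrrn4, Wt1, Bnc1 and Gpm6a were at 0, and of 12 airway markers Scgb1a1, Bpifb1, Foxj1, Ccdc153 and Dynlrb2 were at 0. The cluster was left unnamed, since its leading genes held 1 marker of each class. A single barcode of it had 8 Foxi1 and 162 Gp2 UMIs.

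Clusters 3 and 4 held barcodes of both libraries and stayed unnamed. Cluster 3, with 3 conventional and 6 No-Touch barcodes, was led by Crisp3, Foxq1, Aox3, Cat and Cyp2f2. Crisp3, a secreted protein of salivary glands, came from 1 barcode to 96.7%, while Cat (catalase) and Cyp2f2 (a cytochrome P450) had at least 2 UMIs in 7 and 8 of the 9. Cluster 4, with 10 conventional and 5 No-Touch barcodes, was led by Ccl21a, a chemokine that attracts T cells and dendritic cells, and by MHC class II genes. Ccl21a had 47, 50, 66 and 246 UMIs in 4 conventional barcodes and at most 2 in the other 11. H2-Aa and H2-Eb1 were its markers of dendritic cells and Cd74 its marker of phagocytes. In the same barcodes Cd207, Flt3, Ccr7 and Itgax of dendritic cells and Lyz2, Csf1r, Cd68 and Adgre1 of phagocytes were at 0. However, 1 No-Touch barcode of the cluster had 2 Ptprc and 90 Cd74 UMIs among 47946. Of the selection genes it had 5 Epcam and 2 Krt18 UMIs, with Krt8, Krt7, Krt5, Krt14 and Cdh1 at 0. This was the deepest barcode of clusters 3 and 4, so it weighed most in their summed values. What cell it came from was not tested. Scrublet had called 7 of the 15. Krt17, a keratin of basal and wounded epithelium, stood at 3414 and 4444 CPM in the conventional and No-Touch barcodes of cluster 3. In cluster 4 it stood at 4791 and 382 CPM, and 1 of the 5 No-Touch barcodes there had 2 UMIs or more.

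Cluster 2 held 4 conventional and 7 No-Touch barcodes led by matrix genes such as Thbs4, Cthrc1 and Pi16. Fibroblast genes made up at least 1% of UMIs in 10 of the 11, and the 6 fibroblast markers summed to between 0.911% and 6.01%. Their median depth of 49609 UMIs lay above that of the whole set. These barcodes held UMIs of epithelial and fibroblast genes together, but not all held many of the former. A conventional one of 49609 UMIs had 2 Epcam, 2 Krt18 and 1 Cdh1 UMIs, with Krt8, Krt7, Krt5 and Krt14 at 0. In conventional fibroblast-marker barcodes Epcam had a UMI in 1.79% and Krt18 in 14.5%.

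Several thyroid transcripts were found together in 2 No-Touch barcodes. Tg, thyroglobulin, had 451 UMIs in a barcode of 17071 UMIs (cluster 4) and 383 in a barcode of 62263 UMIs (cluster 2). Pax8, a regulator of thyroid cells, had 6 and 8 UMIs, and Iyd, which recovers iodide, had 12 and 16. In the other 71 barcodes Pax8 was at 0 and Tg had at most 1 UMI. The thyroid list's median ratio of 3.66, with 4 of 6 measured genes higher in the No-Touch library, rests on this pair. The deeper of the pair also held 607 Dcn UMIs, a fibroblast transcript, and the other 5.

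The libraries were then compared gene by gene over these barcodes, on UMIs summed per library and scaled to CPM. Genes of 50 CPM or more in either library numbered 3329. In the No-Touch library 149 of these (4.48%) were higher by 2 times or more, and 592 (17.8%) were lower by that fold. Cluster 6 filled 44.0% of the No-Touch total, and the median log2 ratio over these genes was -0.43 (log2 of CPM + 1). Of the genes apart by that fold 20.1% were higher, and this share moved with the scale. With TMM factors, which set the bulk of genes level, 324 were higher and 306 lower (51.4% higher). Without cluster 6 they were 307 and 288, and within clusters 3 and 4 (13 conventional and 11 No-Touch barcodes) 436 (11.9%) and 457 (12.4%) of 3679. Without the highest Scrublet scores they were 140 and 694. Counts of barcodes, which no scaling moves, are given below for many of the genes.

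**Figure D3:**
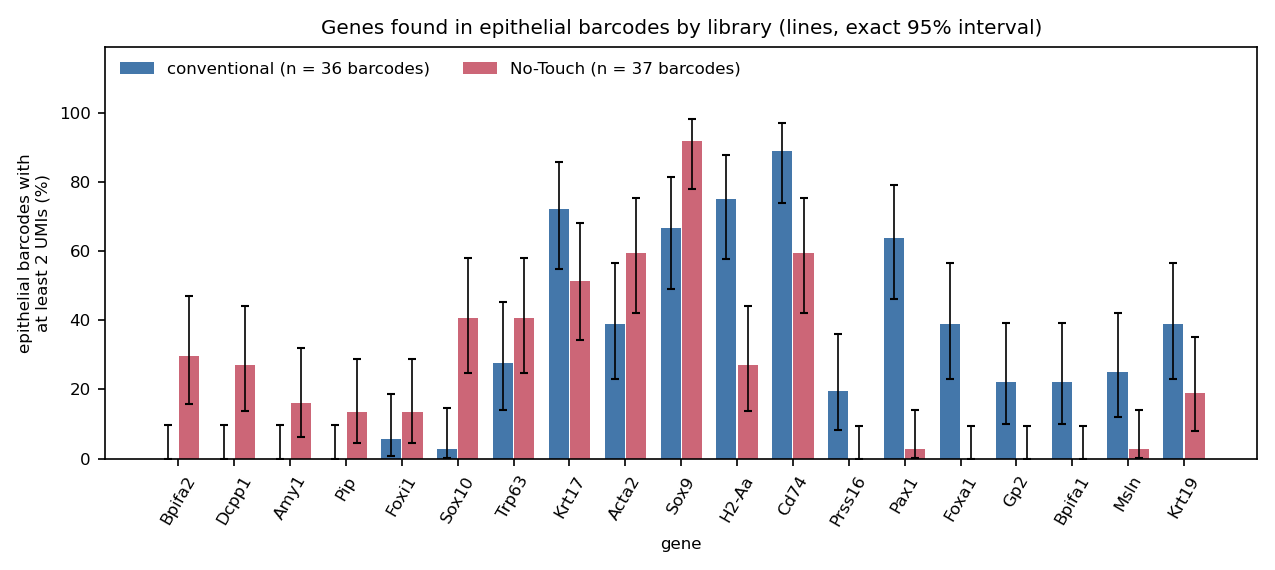
Share of epithelial barcodes with at least 2 UMIs (vertical axis, percent) for 19 genes, by library; bars are shares of 36 conventional and 37 No-Touch barcodes and lines are exact 95% intervals. Pax1 stands at 63.9% (conventional) and 2.70% (No-Touch), Bpifa2 at 0 and 29.7%, and Sox9 at 66.7% and 91.9%.

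Regulators of cell identity differed in how many barcodes held them. Pax1, a paired box regulator of the pharyngeal pouches (chromosome 2, 147361925 to 147393295, plus strand), had at least 2 UMIs in 23 of 36 conventional and 1 of 37 No-Touch barcodes. The shares were 63.9% (46.2 to 79.2) and 2.70% (0.0684 to 14.2). It was found beyond the thymic epithelial-like cluster: 9 of 11 barcodes in cluster 1 and 5 of 10 conventional barcodes in cluster 4 had it at that level, beside 6 of 7 in cluster 5. In parathyroid barcodes (Pth at least 2% of UMIs) Pax1 had a UMI in 96 of 159 conventional and 3 of 6 No-Touch barcodes. In fibroblast-marker barcodes it had a UMI in 1.39% and 1.70%, so the No-Touch epithelial share of 5.41% with any UMI lay near that background. Foxa1, a forkhead regulator of endodermal epithelium (chromosome 12, 57540628 to 57546916, minus strand), had at least 2 UMIs in 14 of 36 and 0 of 37, which allows up to 8.11%.

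Other regulators were found on both sides or on the No-Touch side. Sox9, a regulator of ducts and progenitors, stood at 254 CPM in both libraries, and was found at 2 UMIs in 24 of 36 and 34 of 37 barcodes. Sox10, a regulator of salivary acini and myoepithelium, was found in 1 of 36 and 15 of 37. Elf5, a regulator of gland cells, was found in 0 of 36 and 7 of 37, at 1.28 and 27.2 CPM. These genes followed the clusters. The No-Touch barcodes with Sox10 all lay in clusters 2, 6 and 7. Those with Elf5 lay in cluster 6, apart from the cluster 2 barcode with 381 Bpifa2 UMIs. Trp63 was found in 10 of 36 and 15 of 37, with overlapping intervals.

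Among the 12 genes with the highest No-Touch ratio, Bpifa2, BC037156, Smr3a, Amy1, Scgb1b27, Dcpp1, Crisp1 and Bglap3 had no UMI in the conventional epithelial barcodes. Bpifa2 reached 118658 CPM (118122 to 119197) in No-Touch barcodes, and its count of 0 in the conventional ones allows up to 4.72 CPM. For most of these genes a few barcodes held the sum: the top barcode gave 99.5% of Scgb1b27, 84.1% of Dcpp1 and 70.1% of Smr3a, but 28.2% of Bpifa2. Ggh, a folate hydrolase, was found in both libraries at 44.8 and 1678 CPM, with 10 of 36 and 18 of 37 barcodes at 2 UMIs. Igfbp2, which binds insulin-like growth factors, stood at 3.84 and 117 CPM with 0 and 9 barcodes at 2 UMIs, but within clusters 3 and 4 its log2 ratio was -3.37.

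Among the 12 genes with the lowest ratio, Bpifa1, Gp2 and Snhg11 had no UMI in the No-Touch epithelial barcodes. Bpifa1 stood at 12329 CPM (12084 to 12577) in the conventional library, and a count of 0 allows up to 2.33 CPM in the No-Touch. Depp1, a target of forkhead box O factors, had 595 and 2.53 CPM, and was found at 2 UMIs in 19 of 36 and 1 of 37 barcodes. It was also lower in No-Touch fibroblast-marker barcodes, at 19.0 and 6.03 CPM. Fcgbp, a mucus protein, had 269 and 0.633 CPM, with 10 and 0 barcodes at 2 UMIs. Snhg11 had 14 UMIs or fewer per barcode outside cluster 5 and a lowest, median and highest count of 6, 14 and 43 in it. Tnf had 238 and 5.06 CPM, with a log2 ratio of -5.30 over all 73 barcodes and of 0.95 within clusters 3 and 4. The latter ratio rests on 2 UMIs of a conventional barcode against 4 and 1 UMIs of No-Touch barcodes, too few to give a direction.

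Gene lists were read by how many of their genes of at least 10 CPM were 1.5 times apart. Over all 9521 such genes 9.84% were higher and 37.3% lower in the No-Touch library, with a median log2 ratio of -0.37. In clusters 3 and 4 alone 30.3% of 9538 were higher and 27.3% lower, with a median of 0.06.

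MHC class II genes, which show antigen to helper T cells, were lower in the No-Touch epithelial barcodes. All 7 genes on the list were at least 1.5 times lower, with a median of -3.09. H2-Aa had at least 2 UMIs in 27 of 36 and 10 of 37 barcodes, at 986 and 94.9 CPM. Cd74 had at least 2 UMIs in 32 and 22, at 3227 and 379 CPM. Ciita, the master regulator of class II, had at least 2 UMIs in 11 and 1, at 60.2 and 3.16 CPM. Class II genes were low in the salivary-like and myoepithelial-like clusters (Cd74 at 8.62 and 47.5 CPM). Within clusters 3 and 4 the 7 genes were again lower, with a median of -1.86, and H2-Aa stood at 1499.8 and 299 CPM. The libraries fill this pair of clusters unequally, and cluster 4 is the one led by class II genes. Taken singly, H2-Aa stood at 1886 and 616 CPM in cluster 4 and at 221 and 82.8 CPM in cluster 3, a smaller difference than in the pair pooled. The 5 No-Touch barcodes of cluster 4 were unlike, with 0, 0, 0, 26 and 40 H2-Aa UMIs. Those at 0 were the barcode with 76 Pth UMIs, a barcode with 451 UMIs of thyroglobulin (Tg), and the deepest of the 5. The last held 47946 UMIs, 2 of them Ptprc, and weighed most in the No-Touch sum of cluster 4. The barcodes with 26 and 40 held 16565 and 16821 UMIs in all. The 10 conventional barcodes there had 1 to 60 H2-Aa UMIs. In cluster 3 the conventional barcodes had 2, 2 and 7 H2-Aa UMIs, and the No-Touch ones 0 to 6. Whether like barcodes of the 2 libraries differed in these clusters was not tested. In fibroblast-marker barcodes 1 of the 5 measured genes was lower and 0 were higher (median -0.39), beside 3.48% lower and 7.04% higher over 8466 genes. Dendritic cell markers Cd207, Flt3, Ccr7 and Itgax were at 0 in all 73 epithelial barcodes, and Ptprc was at 0 in the conventional ones.

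Cytokine genes and targets of NF-kappaB, a regulator of inflammation, were mostly lower in the No-Touch library. Of 26 genes, 21 were measured, 16 were lower and 3 higher (median -1.40). Nfkbia, the inhibitor that NF-kappaB induces, stood at 6344 and 1515 CPM and had at least 2 UMIs in 36 of 36 and 36 of 37 barcodes. Cxcl2, a chemokine for neutrophils, stood at 3445 and 326 CPM, with 32 and 18 barcodes. Icam1, an adhesion molecule for leukocytes, stood at 2023 and 559 CPM with 35 and 35. Il6, Il33 and Cxcl9 were the 3 that were higher, at 16.6 and 76.5, 58.9 and 128, and 56.4 and 191 CPM, although Cxcl9 was lower within clusters 3 and 4, at 69.9 and 15.1 CPM. Within those clusters the list's median was -0.81, with 13 lower and 8 higher of 23. The fibroblast-marker barcodes of the same libraries moved likewise, with 13 of 24 lower and 3 higher (median -0.68), and with Nfkbia at 6618 and 3291 CPM. Whether the difference was larger in the epithelial barcodes was not tested.

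Secreted products of mucosa were lower too. Of 20 genes, 14 were measured and all 14 were lower (median -3.63), led by Bpifa1 and by Wfdc2, a protease inhibitor fold protein of airway and gland, at 2674 and 218 CPM. Wfdc2 had at least 2 UMIs in 20 and 18 barcodes, and 1 conventional barcode held 49.2% of its UMIs in that library. Lcn2, which binds bacterial iron carriers, stood at 784 and 286 CPM with 22 and 18 barcodes at 2 UMIs, and Pigr, which carries immunoglobulin across epithelium, at 287 and 65.8 CPM with 11 and 7. Some of the list rested on few barcodes: Muc5b, a gel-forming mucin, had 78.9% of its UMIs in 1, and Scgb3a1 had 95.1%. Within clusters 3 and 4 the list was mixed, with 4 lower and 2 higher of 6, and Wfdc2 was higher in the No-Touch library there, at 247 and 726 CPM.

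Keratins outside the selection gave a like split. Of 7 measured, 6 were lower, and Krt17 stood at 1945 and 588 CPM with 26 and 19 barcodes at 2 UMIs. Krt19, a keratin of ducts, stood at 396 and 32.9 CPM with 14 and 7 barcodes at 2 UMIs, but within clusters 3 and 4 at 27.9 and 87.0 CPM. Krt6a, which wounding induces, had at least 2 UMIs in 6 of 36 and 0 of 37 barcodes.

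The median ratios of junction genes changed sign with the barcodes compared, as did that over all genes. Within clusters 3 and 4 the mix differs between libraries, with 3 conventional barcodes in cluster 3 and 10 in cluster 4 against 6 and 5 No-Touch barcodes, so a difference there may be between clusters as well as within them. Of 18 claudin and tight junction genes 15 were lower and 0 higher over all barcodes (median -0.77), but 9 were higher and 3 lower within clusters 3 and 4 (median 0.57). Cldn4, a barrier claudin, stood at 446 and 248 CPM over all and at 219 and 1119.9 CPM within those clusters. Of 16 desmosome and adherens genes 8 were lower and 0 higher over all (median -0.73), and 7 were higher and 1 lower within the clusters (median 0.47). Beside these lists, 37.3% of all genes were lower and 9.84% higher over all barcodes (median -0.37). Within the clusters 30.3% of all genes were higher and 27.3% lower (median 0.06). Dsp, desmoplakin, was found at 2 UMIs in 29 of 36 and 29 of 37 barcodes. The interferon response list had 6 genes higher and 4 lower of 20 over all epithelial barcodes. Its median of 0.16 lay above the -0.37 of all genes. In fibroblast-marker barcodes the list had 13 higher and 0 lower of 20. Its median there, 0.78, also lay above that of all genes (0.05, with 7.04% higher and 3.48% lower). Within clusters 3 and 4 the list went the other way, with 2 higher and 7 lower of 19. The median there was -0.38, beside 0.06 for all genes. Unfolded protein response genes, which secretory cells use, gave 4 higher and 0 lower of 15 over all (median -0.10) and 11 higher within clusters 3 and 4 (median 0.87). The No-Touch barcodes there included that of 47946 UMIs with 2 Ptprc UMIs and that with 451 Tg UMIs. Their part in this list was not tested.

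**Figure D4:**
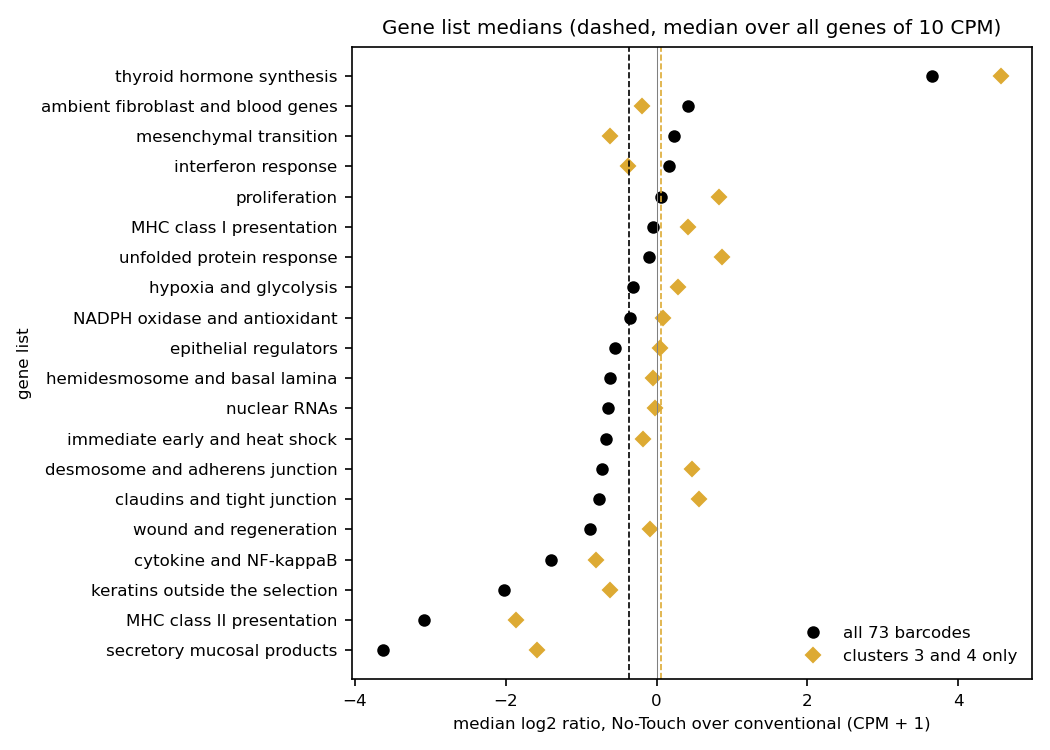
Median log2 ratio of No-Touch over conventional (horizontal axis, CPM + 1) of 20 gene lists (vertical axis), over all 73 epithelial barcodes (black circles) and over the 13 conventional and 11 No-Touch barcodes of clusters 3 and 4 (yellow diamonds); dashed lines are the medians over all genes of 10 CPM, -0.37 and 0.06. MHC class II, mucosal products and cytokine lists lie to the left in both, and claudins and desmosome genes change side.

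The epithelial barcodes were then set against other cells of the same libraries. Among the 25 genes with the highest ratio to all other kept barcodes were Krt17, Wfdc2, the regulators Tfcp2l1, Elf3 and Ehf, Fxyd3, Sfn, Cldn4, Cldn3, Ly6d, Dsp and Perp. Some of these were also found in parathyroid barcodes, where Wfdc2 stood at 299.96 and 202 CPM, Cldn3 at 209.5 and 117 CPM, Cldn4 at 177 and 31.9 CPM and Elf3 at 51.4 and 28.4 CPM. Ehf, an ETS factor of epithelia, stood at 182 and 211 CPM in the conventional and No-Touch epithelial barcodes. It had no UMI in parathyroid or mesothelial-marker barcodes and 0.386 and 0.359 CPM in fibroblast-marker barcodes. Of the epithelial regulators measured, 21 of 21 and 19 of 19 were at least 1.5 times higher than in fibroblast-marker barcodes, beside 27.4% and 12.5% of all genes. Sfn, also called 14-3-3 sigma, had a UMI in 34 of 36 and 32 of 37 barcodes.

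Parathyroid barcodes, another epithelium in these libraries, were then set beside them. Hemidesmosome and basal lamina genes, which anchor basal cells, were higher in 10 of 10 (conventional) and 8 of 10 (No-Touch), with medians of 2.82 and 2.20, beside 35.3% and 22.9% of all genes. Desmosome and adherens genes were higher in 13 of 16 and 13 of 15. Claudin and tight junction genes gave 9 higher and 3 lower of 19, and 4 higher and 6 lower of 18. Of all genes 17.5% and 30.0% were lower, so the No-Touch counts of this list lay near the shares over all genes. Krt18 and Krt8, which were part of the rule, stood at 4437 and 3460 CPM in the conventional epithelial and at 2623 and 2966 CPM in the conventional parathyroid barcodes, and in the latter Krt17 was at 0.591 CPM. The No-Touch values rest on 6 parathyroid barcodes.

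Compared with mesothelial-marker barcodes, which share keratins and line body cavities, the epithelial regulators were higher in 21 of 21 and 19 of 19, beside 25.9% and 15.1% of all genes. MHC class II genes went in opposite directions in the libraries, with 7 of 7 genes higher in conventional (median 2.69) and 7 of 7 lower in No-Touch epithelial barcodes (median -1.94), and the latter were set against 5 mesothelial-marker barcodes. In that No-Touch comparison 50.2% of all genes were lower, with a median of -0.59. Genes of the mesenchymal transition list were lower than in fibroblast-marker barcodes in 12 of 14 and 13 of 14, beside 17.2% and 31.1% of all genes.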

How the data were processed

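RNA of CD45- sorted cells was measured in 1 droplet library per group. The authors deposited whole-number UMI counts per gene and barcode, on mm10. The submitters' processing notes name Cell Ranger 3.1.0, whereas the file headers name Cell Ranger 6.0.0. The sources used here do not give how reads of gene copies and overlapping genes were assigned, or whether strand was used. The libraries held 200851272 (conventional) and 373319906 (No-Touch) UMIs.

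Barcodes were filtered and selected as stated in the report. UMIs were summed per library and scaled to CPM, and ratios are log2 of CPM + 1. Gene comparisons used genes of at least 50 CPM and 2-fold, and lists used 10 CPM and 1.5-fold. Selected barcodes were clustered (scanpy 1.11.5, 1000 variable genes, 15 components, 10 neighbours, Leiden resolution 1). With 1 library per group there is no test and no p-value. Intervals are exact at 95% (Clopper-Pearson for shares, Garwood for summed counts). Where a share of 0 is said to allow up to a percentage, that limit is 3 counts over the number of barcodes. This approximate limit lies below the upper end of the exact interval, which is 9.49% for 0 of 37. Doublets were scored with Scrublet at 0.8% per 1000 barcodes and kept. Alternatives changed the scaling, minimum, selection, doublets, mixed barcodes and depth.

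Between the libraries, the 12 genes with the highest and the 12 with the lowest ratio among genes of 100 CPM or more were named. The members and the lists were chosen with earlier results of these data known. Pax1, Foxa1, Krt6a, the genes of the figures, the levels at the rule's edges and the pair of promoters were chosen after values were seen. Promoter windows are from RefSeq (GRCm38.p6), and gene positions from GENCODE vM21 (mm10).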

Additional observations from a re-analysis of the deposited data

Results flagged for a closer look

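Signals of gland products appeared in barcodes outside the epithelial set. Bpifa2 had a UMI in 70.2% of No-Touch fibroblast-marker barcodes and in 0 of 5752 conventional ones. Smr3a had a UMI in 10.6% of the same No-Touch barcodes and in 0 of the conventional ones. Pth had a UMI in 96.6% of conventional and 36.3% of No-Touch fibroblast-marker barcodes. Each of the 3 was above its level in the other library. The source of these UMIs was not tested.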

How the results depend on the processing

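No paired analysis was possible because each group is 1 library. Of the alternative values, 531 moved by less than their spread or limit, 95 moved further and 6 reversed, and the causes were not tested. The epithelial share fell to 0.240% in the conventional library without the highest Scrublet scores and to 0.163% on thinning to 3000 UMIs, and in the No-Touch library to 0.217% without mixed barcodes and to 0.160% on thinning. Genes higher and lower in the No-Touch library numbered 324 and 306 with TMM factors, 304 and 324 with median of ratios, 492 and 1719 with the lower minimum on CPM, and 307 and 288 without cluster 6. Higher genes numbered 284 by the mean over barcodes, 659 on thinning and 436 within clusters 3 and 4. Lists with a median 1.5 times higher rose from 1 to 3 with TMM factors, median of ratios or clusters 3 and 4 alone, to 2 by the mean over barcodes or without mixed barcodes, and to 5 without cluster 6. Lists lower fell from 10 to 4 with TMM factors, median of ratios, thinning or without cluster 6, to 5 by the mean over barcodes or within clusters 3 and 4, and to 6 without mixed barcodes. The comparisons within clusters 3 and 4 and without cluster 6 were chosen after seeing the data.

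Among lists with a median at least 1.5 times apart, reversed medians were 0.030 on thinning and 0.57 within clusters 3 and 4 for claudins, and 0.47 within those clusters for desmosome genes. Lists with smaller medians also changed sign: MHC class I, unfolded protein response and hypoxia genes kept theirs in 5 of 12 alternatives, and within clusters 3 and 4 the median was -0.62 for mesenchymal transition, -0.38 for interferon response and 0.04 for epithelial regulators. Reversed ratios within those clusters were -0.24 for Scgb2b27, -3.37 for Igfbp2 and 0.95 for Tnf, the last resting on the few UMIs given above. Of the shares of barcodes with a gene, at a minimum of 1 UMI Bpifa2 rose to 64.9% (No-Touch), and Ly75 to 36.1% and Trp63 to 50% (conventional). On thinning, No-Touch shares were 29.7% for Acta2, 5.41% for Trp63 and 8.11% for H2-Aa, and conventional shares were 2.86% for Ly75, 11.4% for Msln, 51.4% for H2-Aa and 5.71% for Trp63. Mixed conventional barcodes numbered 12 when 1 UMI of a marker was enough. Depth limits shares of genes with few UMIs, as the thinned values show.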
